A study of Mus musculus with 6 samples.

Results

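The p53 pathway was followed in mouse liver tumors through 32 genes: p53 itself (Trp53), its inhibitors Mdm2 and Mdm4, and 29 target genes. The members were taken by gene symbol from the deposited table of 47643 genes, and all 32 were found there. The tumors came from FVB/N mice with the transgenes LAP-tTA and tetO-MYC, in which the liver-directed LAP promoter drives a transactivator that switches on a MYC transgene when doxycycline is absent. Both groups carried both transgenes and had doxycycline at 100 mg/L in drinking water up to 4 weeks of age, after which MYC was on for 8 weeks. GSK3326595, which inhibits PRMT5, an enzyme that methylates arginines, was then given at 50 mg/kg/day over 2 weeks to the treated mice, and vehicle to the control mice for the same time. There were 3 GSK3326595 and 3 vehicle libraries of total RNA from liver tumor. The labels number the replicates without saying that each came from its own mouse, and the spread behind every p-value is that between libraries, which may be technical.

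p53 is a transcription factor that is kept low by MDM2, a ubiquitin ligase, and held inactive by the related MDM4. When it is released from them, it activates genes of cell cycle arrest, cell death, DNA repair and metabolism, and Mdm2 itself. MYC is known to engage p53 through the ARF product of Cdkn2a, and PRMT5 bears on p53 by methylating p53 and splicing proteins, with skipping of an Mdm4 exon when PRMT5 is lost. The counts here sum all transcripts of a gene, so Mdm4 splice forms were not analysed.

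Libraries held 25814339 to 32427490 expected counts in the GSK3326595 group and 31480006 to 33621083 in the vehicle group. GSK3326595 replicate 2 stood apart from the rest, at 103.1 on the first principal component (38.1% of the variance), while the other 5 libraries lay between -50.19 and 9.369. Hepatocyte markers summed to between 11170 and 36160 CPM (counts scaled to library size by TMM) in GSK3326595 libraries and between 19770 and 42870 CPM in vehicle libraries, so markers of the labelled tissue were present in every library. Prmt5 had 51.3, 95.96 and 129.9 CPM in the GSK3326595 libraries and 69.9, 48.95 and 84.9 CPM in the vehicle libraries. The drug acts on the PRMT5 enzyme, so its mRNA does not check the labels.

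No p53 pathway gene passed edgeR's quasi-likelihood test at an adjusted p under 0.05 over the 17012 genes tested, and neither did any other gene (0% higher, 0% lower; smallest adjusted p 0.455). The members kept by the filter on low counts numbered 30, and 17 of them had higher (56.7%, against 53.1% of all genes) and 13 lower values in GSK3326595. Their median log2 difference was 0.12, against 0.03 over all genes tested. At an unadjusted p under 0.05, 2 members were higher (Eda2r and Zmat3) and 1 was lower (Btg2), where the background was 5.45% of genes higher and 3.81% lower. That is 10% of the members against 9.26% of all genes, so the share was close to the background. In 25 of the 30 members (83.3%) the log2 difference was smaller than 0.5 in size, as it was in 70.4% of all genes.

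**Figure D1:**
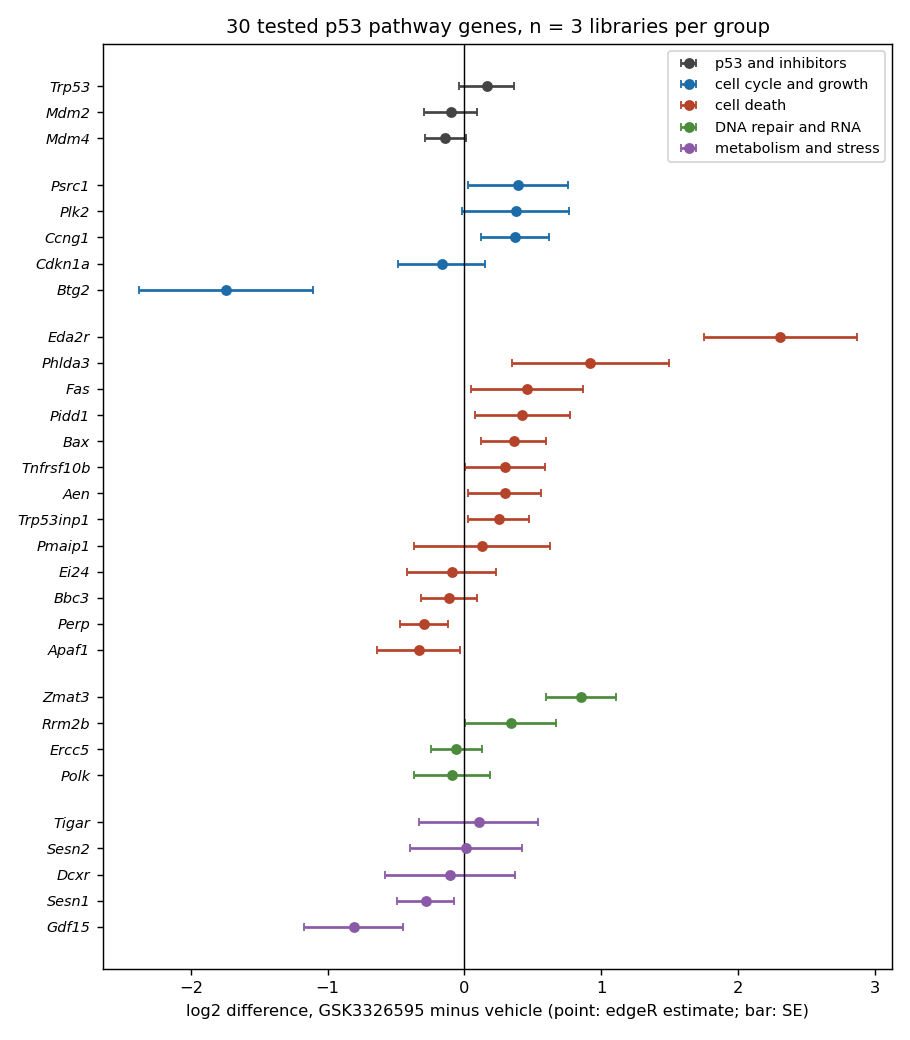
Log2 difference (GSK3326595 minus vehicle) of the 30 tested members, ordered within 5 roles; points are edgeR estimates and bars their SE, with n = 3 libraries per group. Eda2r at 2.31 and Btg2 at -1.74 lie outside the range of -1 to 1 that holds the other 28 members.

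None of the 3 genes at the core of the pathway passed the test. Trp53 (chromosome 11, 69580359 to 69591873, plus strand, mm10) had 32.7, 38.8 and 48.6 CPM in the GSK3326595 libraries and 33.7, 33.3 and 40.1 CPM in the vehicle libraries. Its highest and its lowest value were both in treated libraries, and the log2 difference was 0.16 ± 0.20 (SE; edgeR adjusted p = 0.854). Mdm2 had 62.9, 43.6 and 56.7 CPM in the GSK3326595 libraries and 52.03, 58.4 and 64.4 CPM in the vehicle libraries (edgeR adjusted p = 0.927, log2 difference -0.10 ± 0.19, SE). As a p53 target that encodes the inhibitor of p53, Mdm2 closes a feedback loop, and here GSK3326595 replicate 2 lay below every vehicle library while the other treated libraries lay within the vehicle range. Mdm4 (chromosome 1, 132959484 to 133030561, minus strand) had 152.7, 130.7 and 135.3 CPM in the GSK3326595 libraries and 159.1, 153.3 and 149.1 CPM in the vehicle libraries. GSK3326595 replicates 2 and 3 lay below all vehicle libraries and replicate 1 among them (log2 difference -0.14 ± 0.15, SE; edgeR adjusted p = 0.826).

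The CPM of Mdm4, Mdm2 and Trp53 cannot be set against each other, since long transcripts gather more reads. Per kilobase of annotated exon, Mdm2 averaged 10.7 CPM in GSK3326595 and 11.5 CPM in vehicle libraries, Mdm4 averaged 9.43 and 10.4 CPM, and Trp53 averaged 9.89 and 8.84 CPM. The exon length merges all annotated transcripts of a gene, whether or not they were expressed. For some members, Mdm2 among them, it comes from another version of the gene record. Values per kilobase are therefore a rough guide between genes. Per kilobase over all 6 libraries, 9 of the 32 members lay above 10 CPM, 19 between 1 and 10 CPM, and 4 below 1 CPM. Perp (49.8 CPM per kilobase), a membrane protein of desmosomes, was the most abundant, followed by Ccng1 (30.8) and Bax (24.1). Zfp365 (0.041 CPM per kilobase) and Ddit4l (0.070) were the least abundant, and these were the members that the filter removed.

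**Figure D2:**
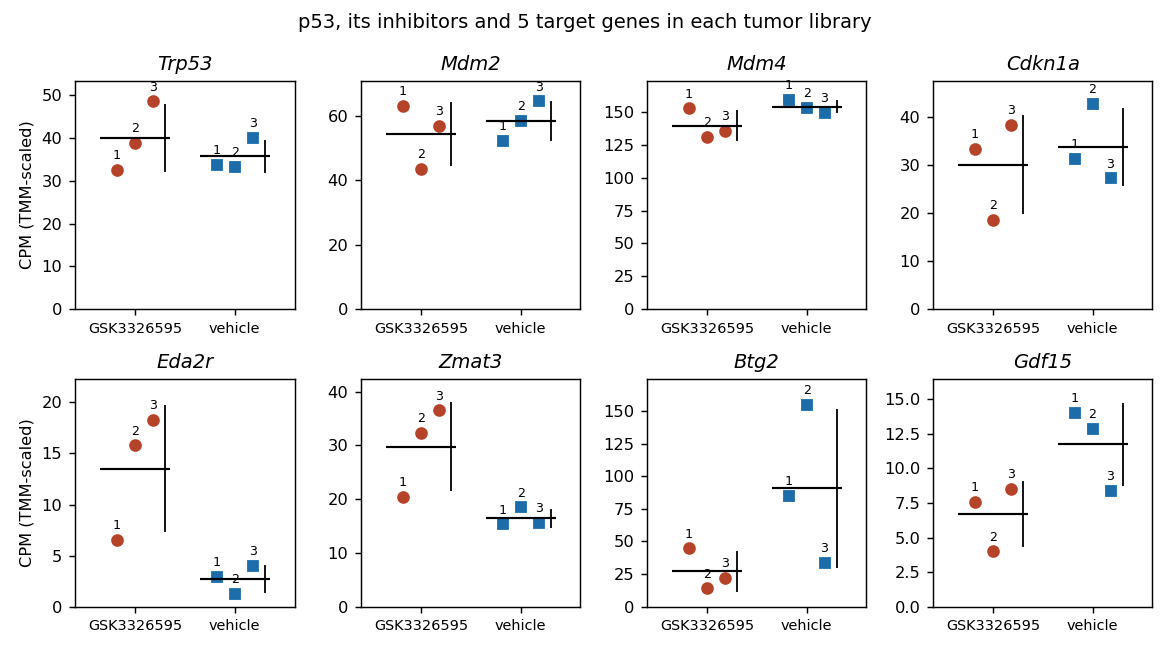
TMM-scaled CPM of 8 members in each library, GSK3326595 on the left and vehicle on the right of each panel; numbers are replicate numbers, horizontal lines are means and vertical lines 1 SD (n = 3 each). Eda2r and Zmat3 do not overlap between the groups, while Trp53, Mdm2, Mdm4, Cdkn1a, Btg2 and Gdf15 do.

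Of the 5 targets of cell cycle and growth, 3 had higher and 2 lower values. Cdkn1a (chromosome 17, 29090976 to 29100727, plus strand) encodes p21, the inhibitor of cyclin-dependent kinases through which p53 stops the cell cycle. It had 33.4, 18.6 and 38.4 CPM in the GSK3326595 libraries and 31.4, 42.8 and 27.2 CPM in the vehicle libraries. GSK3326595 replicate 2 was the lowest library and the other treated values lay within the vehicle range. The log2 difference of Cdkn1a was -0.17 ± 0.32 (SE; edgeR adjusted p = 0.925), and it turned to 0.14 without GSK3326595 replicate 2. Ccng1, encoding cyclin G1, had 114.3, 87.6 and 164.5 CPM in the GSK3326595 libraries and 94.4, 86.3 and 102.5 CPM in the vehicle libraries. Its treated values reached above all vehicle values in replicates 1 and 3 only (log2 difference 0.37 ± 0.25, SE; edgeR adjusted p = 0.691). Psrc1, a microtubule-associated protein, had 13.5, 31.1 and 37.05 CPM in the GSK3326595 libraries and 19.9, 19.6 and 22.5 CPM in the vehicle libraries. Replicate 1 was thus the lowest of all libraries, while replicates 2 and 3 were above every vehicle library. Plk2, a polo-like kinase, showed the other pattern, with 23.98, 8.37 and 15.3 CPM in the GSK3326595 libraries and 10.1, 13.3 and 13.3 CPM in the vehicle libraries.

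Btg2 (chromosome 1, 134075170 to 134079120, minus strand), an antiproliferative cofactor of mRNA deadenylation, had the largest negative difference among the members. There were 44.7, 14.1 and 22.4 CPM in the GSK3326595 libraries and 84.6, 154.5 and 33.3 CPM in the vehicle libraries. Vehicle replicate 3 lay below GSK3326595 replicate 1, so the groups overlapped. The log2 difference was -1.74 ± 0.64 (SE; edgeR adjusted p = 0.522), and it ranged from -2.31 without GSK3326595 replicate 1 to -1.12 without vehicle replicate 2. The unadjusted p of Btg2 passed 0.05 in 2 of the 6 fits with a library left out, without GSK3326595 replicate 1 and without vehicle replicate 3, and reached 0.107 at most in the other fits. Btg2 is also induced as an immediate early gene, and of 16 tested genes of that class, which leaves out Btg2, 13 were lower and 6 of these had an unadjusted p under 0.05. Their CPM summed to between 145.8 and 322.3 in GSK3326595 libraries and between 250.9 and 487.1 in vehicle libraries. Jund (log2 difference -1.23 ± 0.19), Jun (-1.07 ± 0.25), Fosb (-1.02 ± 0.32) and Ier2 (-0.96 ± 0.38) had the smallest p of that class (SE). What part the lower immediate early genes have in the Btg2 difference was not tested.

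The promoters of members were set beside these values because p53 acts through a known DNA motif. A window from 250 bases before to 50 bases after each RefSeq transcript start (build GRCm38.p6, the assembly of mm10) was at hand for 26 of the 32 genes. The windows were searched for the p53 consensus decamer, which is its own reverse complement and so reads alike on both strands. An exact decamer was found in 11 of 35 member windows (31.4%), from 10 genes, against 8.36% of all 32851 windows. Paired decamers, at most 1 base apart and with at most 2 mismatches in all outside the fixed C and G, were in the windows of Cdkn1a, Ccng1, Bax and Zfp365, against 0.682% of all windows. As the members were chosen as p53 targets, this share describes the list and is no result of the treatment. For the 3 well-expressed genes, the windows with paired decamers are printed, with these in capitals. A further Cdkn1a window, chr17:29093519-29093818, held none. Beside them is the window of Eda2r, the member with the largest difference, which held none either.
Cdkn1a, chr17:29090729-29091028, plus strand: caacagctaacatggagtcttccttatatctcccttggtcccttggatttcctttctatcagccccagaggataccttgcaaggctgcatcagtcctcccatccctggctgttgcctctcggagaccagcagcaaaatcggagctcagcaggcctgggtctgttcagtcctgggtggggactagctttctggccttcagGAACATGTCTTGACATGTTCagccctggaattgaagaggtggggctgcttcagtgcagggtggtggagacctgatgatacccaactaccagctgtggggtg
Ccng1, chr11:40755237-40755536, minus strand: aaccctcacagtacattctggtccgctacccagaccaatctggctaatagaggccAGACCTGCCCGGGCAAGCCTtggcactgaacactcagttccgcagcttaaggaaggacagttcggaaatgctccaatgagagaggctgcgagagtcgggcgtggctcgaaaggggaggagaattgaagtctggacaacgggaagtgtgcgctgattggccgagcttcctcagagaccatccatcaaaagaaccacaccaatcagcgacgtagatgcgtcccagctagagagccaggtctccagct
Bax, chr7:45466849-45467148, minus strand: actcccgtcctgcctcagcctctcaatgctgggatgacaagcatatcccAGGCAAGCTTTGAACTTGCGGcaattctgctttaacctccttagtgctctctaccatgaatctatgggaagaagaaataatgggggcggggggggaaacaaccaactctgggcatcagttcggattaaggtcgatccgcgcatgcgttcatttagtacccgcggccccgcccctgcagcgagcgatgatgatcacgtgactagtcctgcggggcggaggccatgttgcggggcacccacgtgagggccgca
Eda2r, chrX:97377160-97377459, minus strand: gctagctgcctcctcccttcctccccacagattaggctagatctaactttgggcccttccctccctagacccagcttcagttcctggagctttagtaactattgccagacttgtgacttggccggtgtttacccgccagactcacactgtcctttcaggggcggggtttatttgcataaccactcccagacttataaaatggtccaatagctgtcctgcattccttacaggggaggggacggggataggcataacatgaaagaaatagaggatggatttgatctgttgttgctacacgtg

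Both directions occurred among members with and without an exact decamer in the window. Of 9 tested members with one, 4 were higher and 5 lower (median log2 difference -0.087), and of 15 tested members with a window and none, 8 were higher and 7 lower (0.013). Sites outside these windows, in introns or further upstream, were not searched.

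Among the 13 targets of cell death, 9 had higher and 4 lower values, with a median log2 difference of 0.30. Eda2r (chromosome X, 97333840 to 97377216, minus strand), a receptor of the TNF receptor family that binds ectodysplasin A2, had the largest difference of all members. It had 6.51, 15.8 and 18.3 CPM in the GSK3326595 libraries and 2.90, 1.26 and 4.00 CPM in the vehicle libraries, from 202, 509 and 507 counts against 91, 37 and 134. Each treated library lay above each vehicle library, which held for 6.72% of all genes tested. The log2 difference was 2.31 ± 0.56 (SE; edgeR adjusted p = 0.455), and it stayed between 1.97 and 2.75 with an unadjusted p under 0.05 in all 6 fits that left out a library. DESeq2 called Eda2r (adjusted p = 0.00521), the only member it called, where it called 1.1% of genes higher and 0.591% lower. That call ended without vehicle replicate 1 (DESeq2 adjusted p = 0.105) and without vehicle replicate 2 (0.0548).

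The death receptors Fas and Tnfrsf10b did not share the size of that difference. Fas had 11.6, 9.33 and 3.90 CPM in the GSK3326595 libraries and 5.51, 6.74 and 5.82 CPM in the vehicle libraries. Replicates 1 and 2 were above and replicate 3 below every vehicle library (log2 difference 0.46 ± 0.41, SE; edgeR adjusted p = 0.774). Tnfrsf10b, the mouse TRAIL receptor, had 4.64, 4.62 and 7.29 CPM in the GSK3326595 libraries and 3.73, 4.97 and 4.77 CPM in the vehicle libraries, where replicate 3 alone stood above vehicle.

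Of the mitochondrial arm, Bax, which opens the outer membrane, had 36.8, 34.9 and 56.5 CPM in the GSK3326595 libraries and 31.2, 29.9 and 38.7 CPM in the vehicle libraries (log2 difference 0.36 ± 0.24, SE; edgeR adjusted p = 0.688). Only replicate 3 exceeded all vehicle libraries. Bbc3, which encodes PUMA, had 9.48, 8.37 and 9.92 CPM in the GSK3326595 libraries and 10.4, 9.90 and 9.67 CPM in the vehicle libraries, a narrow span in both groups. Pmaip1, which encodes NOXA, had 8.48, 3.66 and 10.5 CPM in the GSK3326595 libraries and 3.70, 7.25 and 9.73 CPM in the vehicle libraries. Both groups of Pmaip1 covered nearly the same range. Apaf1, the scaffold on which caspases are activated, had 50.96, 22.2 and 42.7 CPM in the GSK3326595 libraries and 46.2, 48.7 and 51.2 CPM in the vehicle libraries, so its log2 difference of -0.33 ± 0.30 (SE) came to -0.0085 without GSK3326595 replicate 2.

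Phlda3, an inhibitor of AKT, was a low-level member with 2.77, 1.80 and 3.93 CPM in the GSK3326595 libraries and 0.701, 1.05 and 2.72 CPM in the vehicle libraries. Its log2 difference was 0.92 ± 0.58 (SE; edgeR adjusted p = 0.666), and it came to 1.73 without vehicle replicate 3 and 0.58 without vehicle replicate 1. Pidd1, which assembles a caspase-activating complex, had 6.03, 12.4 and 11.9 CPM in the GSK3326595 libraries and 6.85, 6.43 and 9.34 CPM in the vehicle libraries. Aen, an exonuclease of apoptosis, had 44.6, 80.99 and 83.4 CPM in the GSK3326595 libraries and 61.3, 49.2 and 59.8 CPM in the vehicle libraries. Pidd1 and Aen shared the pattern of Psrc1, lowest of all libraries in GSK3326595 replicate 1 and above vehicle in replicates 2 and 3. Trp53inp1, a nuclear partner of p53 that also acts in autophagy, had the tightest treated group of the members, with 102.0, 101.5 and 104.9 CPM in GSK3326595 libraries against 63.6, 111.4 and 84.3 CPM in vehicle libraries. Ei24 had a log2 difference of -0.09 ± 0.33 (SE). Perp had 96.4, 78.9 and 86.7 CPM in the GSK3326595 libraries and 118.4, 112.3 and 90.02 CPM in the vehicle libraries, where GSK3326595 replicate 1 lay above vehicle replicate 3 (log2 difference -0.29 ± 0.18, SE; edgeR adjusted p = 0.651).

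**Figure D3:**
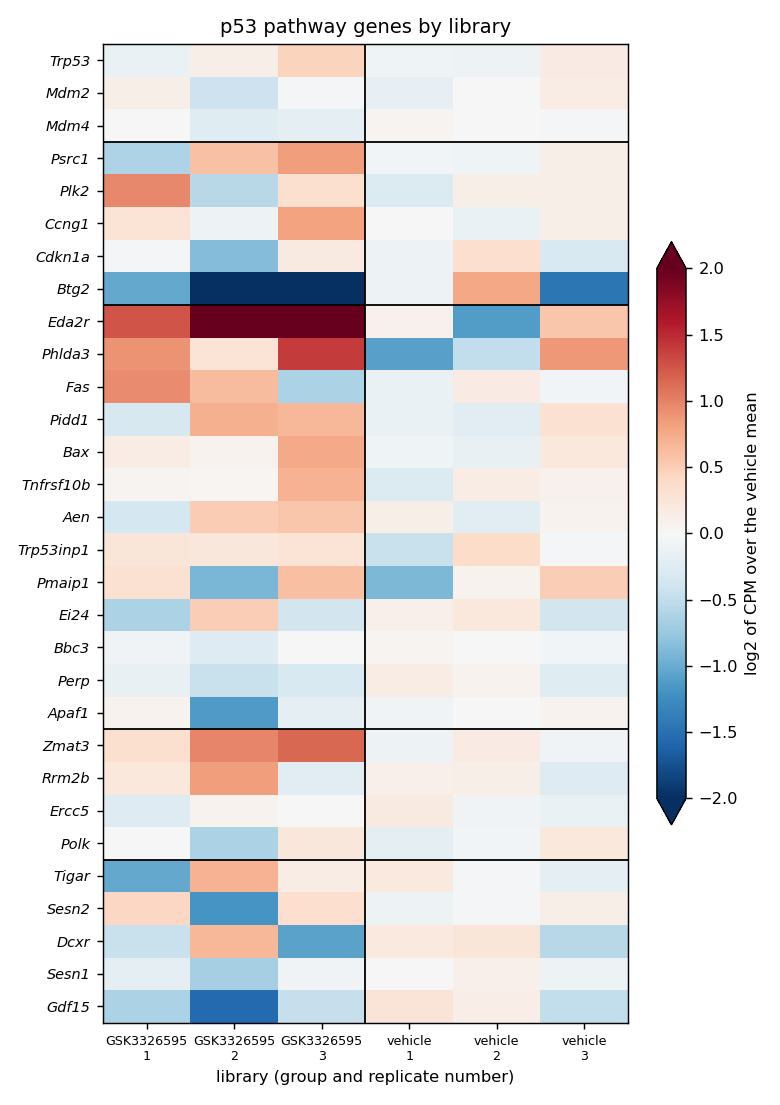
Log2 of each tested member's CPM over its vehicle mean, by library (columns) and role (blocks of rows, in the order p53 and inhibitors, cell cycle and growth, cell death, DNA repair and RNA, metabolism and stress); the colour scale ends at -2 and 2. By coefficient of variation, the 3 GSK3326595 columns differ from each other more than the 3 vehicle columns do in 24 of the 30 rows. That is 80% of the members, against 75.2% of all genes.

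Of the 5 members of DNA repair and RNA handling, 4 were tested, and 2 had higher and 2 lower values. Zmat3 (chromosome 3, 32334792 to 32366014, minus strand), a zinc finger protein that binds RNA and regulates splicing, had 20.5, 32.4 and 36.5 CPM in the GSK3326595 libraries and 15.3, 18.5 and 15.6 CPM in the vehicle libraries. The groups did not overlap, and as for Eda2r, GSK3326595 replicate 1 was the treated library nearest to vehicle. The log2 difference of Zmat3 was 0.86 ± 0.26 (SE; edgeR adjusted p = 0.493), and it ranged from 0.70 to 1.06 with a library left out, where the unadjusted p passed 0.05 in 5 of 6 fits and was 0.052 without vehicle replicate 1. Eda2r and Zmat3 were the 2 tested members (6.67%) whose groups did not overlap, against 14.4% of all genes, and no member had all treated libraries below vehicle, against 7.66% of all genes. Rrm2b, a ribonucleotide reductase subunit, had 5.90, 9.12 and 4.40 CPM in the GSK3326595 libraries and 5.51, 5.58 and 4.27 CPM in the vehicle libraries. Ercc5, a nuclease of excision repair, and Polk, a translesion polymerase, had log2 differences of -0.06 ± 0.19 and -0.09 ± 0.28 (SE). Zfp365, which acts in genome stability, had 7, 5 and 5 counts in the GSK3326595 libraries and 6, 9 and 7 in the vehicle libraries, and was not tested.

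Markers of some other cell types were higher in the group in which Eda2r and Zmat3 were higher. T cell and NK markers were higher with an unadjusted p under 0.05 in 13 of 16 tested genes, and summed to between 24.2 and 55.1 CPM in GSK3326595 libraries and between 9.22 and 14.3 CPM in vehicle libraries. Dendritic cell markers were higher at that p in 8 of 10 genes, with sums of 207.4 to 874.1 CPM in GSK3326595 libraries and 24.5 to 60.0 CPM in vehicle libraries. Stellate cell and fibroblast markers were higher at that p in 2 of 11 genes, with sums of 686.8 to 845.8 CPM in GSK3326595 libraries and 154.2 to 593.1 CPM in vehicle libraries. Among the treated libraries the T cell and NK sum was lowest in replicate 3, where Eda2r and Zmat3 were highest. The B and plasma cell, neutrophil, endothelial, erythroid and hepatocyte sums were lowest there too, hepatocyte markers at 11170 CPM. The stellate and biliary sums were highest there. The dendritic sum was 874.1, 340.2 and 207.4 CPM in GSK3326595 replicates 1, 2 and 3, the reverse of the order of Eda2r and Zmat3 among these libraries. The ribosomal RNA precursor Rn45s, Gm26917, Lars2 and AY036118 together took 1.204%, 2.368% and 3.703% of the counts in the GSK3326595 libraries. In the vehicle libraries this set took 1.066%, 0.686% and 1.843%. Its share was highest in the library in which Eda2r was highest and lowest in the one in which Eda2r was lowest. Zmat3 too was highest where the share was highest. It was not lowest where the share was lowest, in vehicle replicate 2, as its 18.5 CPM there was its highest vehicle value. B and plasma cell markers were higher at that p in 3 of 7 genes, and hepatocyte and erythroid markers were lower in 1 of 14 and 1 of 7. None passed it among 13 macrophage, 4 neutrophil, 10 endothelial and 6 biliary markers tested. By direction alone, all 4 neutrophil and 6 of the 7 erythroid markers were lower. The neutrophil sum was 5.70, 222.2 and 2.21 CPM in vehicle replicates 1, 2 and 3. No marker of these lists was at 0 in all libraries. The part of these markers and of the set with Rn45s in the Eda2r and Zmat3 differences was not tested. In bulk tumor RNA a change in the number of cells of a type and one in RNA per cell cannot be told apart.

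Of the 6 members of metabolism and stress, 5 were tested, and 2 had higher and 3 lower values. Gdf15, a secreted stress cytokine, had 7.58, 4.00 and 8.51 CPM in the GSK3326595 libraries and 13.99, 12.9 and 8.35 CPM in the vehicle libraries. Vehicle replicate 3 lay just below GSK3326595 replicate 3, so the groups overlapped by that pair alone (log2 difference -0.81 ± 0.36, SE; edgeR adjusted p = 0.552). Gdf15 is induced by the integrated stress response as well as by p53, and of 13 tested genes of that response 10 were lower, 3 of them at an unadjusted p under 0.05. Psat1 (log2 difference -0.96 ± 0.30), Ppp1r15a (-1.17 ± 0.40), Trib3 (-1.99 ± 0.70) and Asns (-0.33 ± 0.16) had the smallest p there (SE), and whether they and Gdf15 share a cause was not tested. Sesn1, which restrains mTORC1, had 27.2, 19.6 and 29.4 CPM in the GSK3326595 libraries and 30.7, 33.2 and 28.9 CPM in the vehicle libraries. Its relative Sesn2 had 19.7, 6.57 and 18.7 CPM in the GSK3326595 libraries and 13.8, 14.7 and 16.1 CPM in the vehicle libraries, so replicate 2 lay below and replicates 1 and 3 above all vehicle libraries. Tigar, a fructose bisphosphatase that slows glycolysis, had 4.42, 14.7 and 9.99 CPM in the GSK3326595 libraries and 10.4, 8.74 and 7.97 CPM in the vehicle libraries. Dcxr, a reductase of xylulose, had 9.77, 20.96 and 6.28 CPM in the GSK3326595 libraries and 15.1, 15.6 and 9.01 CPM in the vehicle libraries. Tigar and Dcxr were both highest in GSK3326595 replicate 2. Ddit4l, a further inhibitor of mTORC1, was not tested, with 5, 17 and 8 counts in the GSK3326595 libraries and 3, 0 and 5 in the vehicle libraries. With no filter on low counts its log2 difference was 1.95 ± 0.94 (SE; edgeR adjusted p = 0.658).

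Most members varied more among GSK3326595 than among vehicle libraries, and so did most genes. GSK3326595 replicate 3 was the highest of the 6 libraries in 11 of 30 members (36.7%), against 21.3% of all genes, and GSK3326595 replicate 2 was the lowest in 13 (43.3%), against 22.7% of all genes. The coefficient of variation was larger among GSK3326595 than among vehicle libraries in 24 of the 30 members (80%), as in 75.2% of all genes. Its median over the members was 34.7% in GSK3326595 and 14.1% in vehicle libraries, and over all genes 30.2% in GSK3326595 and 17.9% in vehicle libraries.

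**Figure D4:**
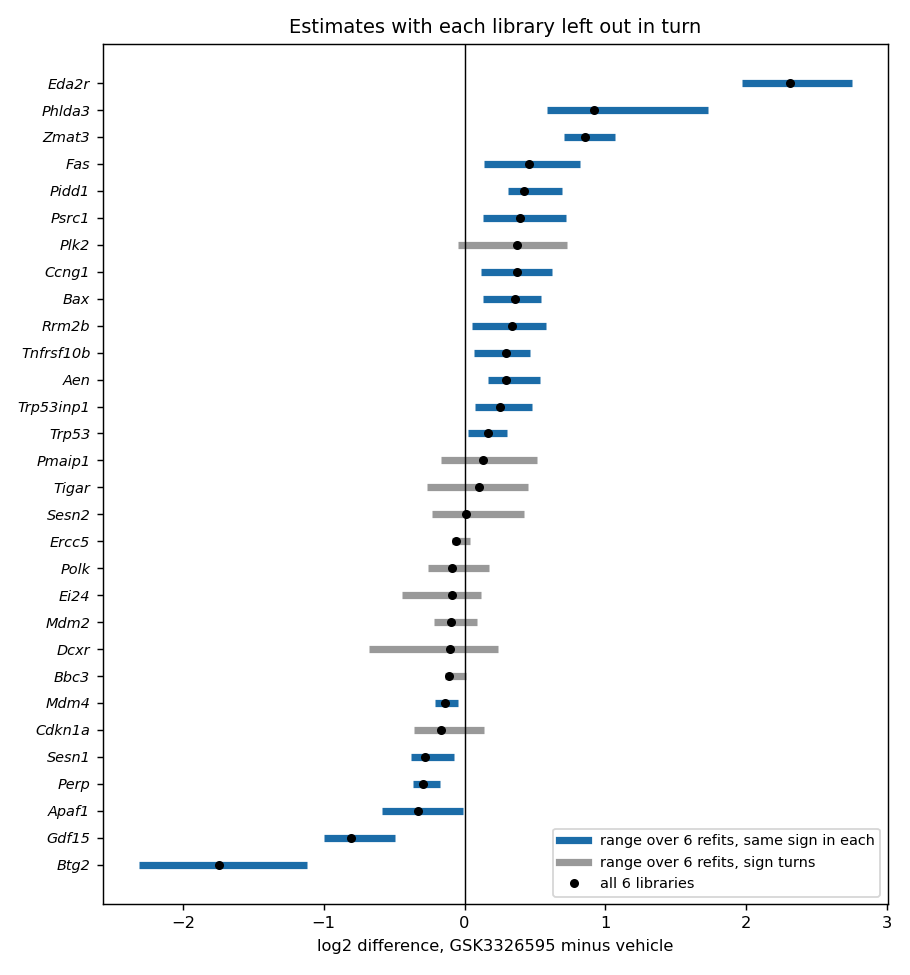
Log2 difference (GSK3326595 minus vehicle) of the 30 tested members with all 6 libraries (points) and the range over 6 refits that each leave out a library (bars). Grey bars mark the 11 members whose sign turns, and Eda2r stays between 1.97 and 2.75.

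Which members passed an unadjusted p of 0.05 changed with each library left out. Without GSK3326595 replicate 1 there were 6, with Psrc1, Pidd1 and Aen joining Eda2r, Zmat3 and Btg2 (20% of members, against 10.6% of all genes). Without GSK3326595 replicate 2 there were 4, namely Ccng1, Plk2, Eda2r and Zmat3 (13.3%, against 9.98%). Without GSK3326595 replicate 3 there were 3, namely Fas, Eda2r and Zmat3 (10%, against 12.8%). Without vehicle replicate 1 Eda2r alone was left (3.33%, against 3.29%), and without vehicle replicate 2 Eda2r and Zmat3 were left (6.67%, against 5.61%). Without vehicle replicate 3 there were 4, with Phlda3 joining Eda2r, Zmat3 and Btg2 (13.3%, against 9.96%).

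Genes around the members were read from lists of the p53 network. Of 23 tested regulators and partners of p53 (26 listed), 12 were higher and 11 lower, and none had an unadjusted p under 0.05; the smallest p belonged to Chek2 (1.01 ± 0.60), a checkpoint kinase, then Rpl11 (-0.25 ± 0.17) and Rpl5 (-0.31 ± 0.21), ribosomal proteins that bind MDM2, and Hipk2 (0.44 ± 0.34), a kinase of p53 (log2 difference ± SE). Cdkn2a was under the filter, with 0.0967, 0 and 0.541 CPM in the GSK3326595 libraries and 0.0319, 0.068 and 0.149 CPM in the vehicle libraries. Trp63 and Trp73 were under the filter as well and were not tested. Trp63 had 0, 0.031 and 0 CPM in the GSK3326595 libraries and 2.52, 4.39 and 0.149 CPM in the vehicle libraries. Ppm1d, the phosphatase that p53 induces to switch itself off, had a log2 difference of -0.0022 ± 0.28.

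Of 31 tested further p53 targets (32 listed), 16 were higher and 15 lower, and 4 higher and 2 lower ones had an unadjusted p under 0.05 (19.4%, against 9.26% of all genes). Their median log2 difference was 0.0098. Tap1, a peptide transporter of MHC class I loading, had 16.6, 27.3 and 7.54 CPM in the GSK3326595 libraries and 1.98, 5.27 and 4.57 CPM in the vehicle libraries. Ddit4, an inhibitor of mTORC1, had 14.9, 19.2 and 18.8 CPM in the GSK3326595 libraries and 64.04, 107.3 and 20.6 CPM in the vehicle libraries. Dram1, a lysosomal protein of autophagy, had 6.80, 22.1 and 4.87 CPM in the GSK3326595 libraries and 2.23, 3.91 and 2.15 CPM in the vehicle libraries. The groups did not overlap in 5 of the 31 (16.1%, against 14.4% of all genes), Tap1, Ddit4 and Dram1 among them. Ddit4 was nearly as low in vehicle replicate 3 as in the treated libraries. The T cell and dendritic cell sums given above were higher in the same 3 libraries as Tap1 and Dram1, and their part in these differences was not tested.

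Genes of the cell cycle that p53 represses through p21 and the DREAM complex were tested in full. Of these, 8 of 20 had higher and 12 lower values. Their sum was 1509, 1701 and 3423 CPM in the GSK3326595 libraries and 2517, 1962 and 2980 CPM in the vehicle libraries. The highest and the lowest sum were thus both in treated libraries. An unadjusted p under 0.05 was found in 1 of the 20 genes (5%, against 9.26% of all genes). That was Ccnb2, a mitotic cyclin, with 25.6, 34.8 and 48.05 CPM in the GSK3326595 libraries and 71.6, 57.5 and 65.9 CPM in the vehicle libraries (log2 difference -0.85 ± 0.26, SE; edgeR adjusted p = 0.493). Cenpa (-0.46 ± 0.22), Cdc25c (-0.57 ± 0.40) and Mki67 (-0.29 ± 0.30) followed. Of 22 genes of the BCL2 family and caspases, 15 were higher and 7 lower. Casp8, the initiator caspase of death receptors, alone had an unadjusted p under 0.05 (4.55%, against 9.26% of all genes). Casp8 had 23.3, 24.8 and 15.0 CPM in the GSK3326595 libraries and 10.2, 11.8 and 13.4 CPM in the vehicle libraries (0.84 ± 0.26, SE; edgeR adjusted p = 0.504). Its groups did not overlap, which held for 2 of the 22 genes (9.09%, against 14.4% of all genes). Bcl2 (0.77 ± 0.38) came next. All 5 genes of PRMT5 and its partners had positive log2 differences, from 0.022 in Wdr77 to 0.44 in Prmt5, none with an unadjusted p under 0.05. Their sum was 171.9, 275.2 and 364.7 CPM in the GSK3326595 libraries and 245.0, 196.8 and 266.8 CPM in the vehicle libraries. GSK3326595 replicate 1 was thus the lowest library.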

How the data were processed

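Per the labels' protocols, stranded libraries of total RNA were sequenced, and the authors deposited expected counts for each gene, with no scaling for depth. Cutadapt, STAR, Picard and RSEM and the build mm10 are named, without versions, per the submitters' processing notes; the annotation release and use of strand in counting are not given in the sources used here. Cdkn1a, Ei24, Rrm2b and Tigar share exon bases with antisense genes and Bax with a gene on its own strand, so their counts are less certain. Coordinates (1-based) and exon lengths come from GENCODE M21, matched by gene ID, of the same assembly. Expected counts were rounded, filtered with filterByExpr (minimum count 10), TMM-scaled and tested with edgeR 4.0.16 in R 4.3.3 (quasi-likelihood, two-sided, Benjamini-Hochberg over 17012 genes, threshold 0.05). SE is the absolute log2 difference over the square root of F. CPM are TMM-scaled; principal components were taken on log2 CPM (prior count 2). Alternatives were DESeq2 1.42.0 and limma 3.58.1 (voom), and all 3 tests were tested on simulated counts. Scaling and filters were also varied, replicate number was added as a block, and each library was left out in turn. The members and gene lists were chosen with earlier results of these data known, so lists are described by counts and medians without a test. Values in every library are given for Trp53, Mdm2, Mdm4, Cdkn1a, Prmt5 and members with an unadjusted p under 0.05 or non-overlapping groups; other members shown that way, and genes of other lists beyond the 4 of smallest p, were chosen after their values were seen. A few genes of the other lists that this rule names are not reported here. A 3 against 3 design cannot give an exact permutation p under 0.1.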

Additional observations from a re-analysis of the deposited data

How the results depend on the processing

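Eda2r, Zmat3 and Btg2 were the members with an unadjusted p under 0.05 under every scaling, filter and tool tried, and Eda2r and Zmat3 under the replicate block, where 0 members were lower (Btg2 was lost). The labels do not say whether the replicate numbers pair the libraries. Same-numbered deviations correlated at -0.0728, 0.0718 and 0.3231, and differently numbered ones at -0.431 to 0.3241. With 3 libraries a group these correlations depend on each other and cannot decide whether the libraries are paired. edgeR called 0 genes under every setting, while DESeq2 called 186 genes higher and 100 lower and 1 member, Eda2r; its adjusted p there ranged from 0.0002851 to 0.1054 without each library, a check chosen after seeing the data. Over the left-out libraries the genes at an unadjusted p under 0.05 numbered 315 (without vehicle replicate 1) to 1560 (without GSK3326595 replicate 3) higher and 240 (without vehicle replicate 2) to 936 (without GSK3326595 replicate 1) lower, and 244 lower without vehicle replicate 1. The members at that p numbered 1 to 5 higher and 0 to 1 lower, those with all treated libraries above vehicle 2 to 6, and those below 0 to 4. Groups fail to overlap more easily with a library left out. The share of all genes was not counted in those fits, so the counts without overlap say nothing particular to the members. With no filter on low counts 1547 genes were higher at that p, and with library totals only 430 were lower; the cause was not tested. The members' median log2 difference stayed between 0.0197 (limma-voom) and 0.2034 (library totals only) in all settings. The median over all genes moved as well, from -0.0093 by limma-voom to 0.1172 with library totals only.

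Of 420 member values under alternatives, 29 turned sign, in 11 members. Without each library these ran from -0.217 to 0.086 (Mdm2), -0.3576 to 0.1375 (Cdkn1a), -0.0491 to 0.7246 (Plk2), -0.1407 to 0.0074 (Bbc3), -0.1702 to 0.5119 (Pmaip1), -0.4471 to 0.1198 (Ei24), -0.2569 to 0.1733 (Polk), -0.0901 to 0.0419 (Ercc5), -0.2341 to 0.4193 (Sesn2), -0.2644 to 0.451 (Tigar) and -0.678 to 0.2369 (Dcxr). With library totals only Polk came to 0.0035 and Ercc5 to 0.0357. Sesn2 came to -0.1575 by limma-voom and -0.1297 with the replicate block, and Tigar to -0.049 and -0.0343; the cause was not tested. With 3 libraries a group and a common biological coefficient of variation of 0.409, differences of the size seen in most members cannot be told from 0, which does not show that they are absent.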
